A study of Mus musculus with 2 samples.

Results

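C1q-expressing skin macrophages of the mouse embryo are described here across all genes, as cells chosen by their own counts from single-cell libraries of sorted trunk skin. A cell was taken when it had at least 100 genes detected, at most 10% of its UMIs (unique molecular identifiers, each standing for 1 captured transcript) from mitochondrial genes, and at least 8 raw UMIs summed over *C1qa*, *C1qb*, *C1qc*, *Csf1r*, *Pf4* and *Mrc1*. It also had to hold at most 4 UMIs summed over the melanoblast genes *Dct*, *Pmel* and *Mlana*. This rule found 118 of 2368 cells. Because those 6 marker genes chose the cells, their levels describe the choice and are not a finding.

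The study compared embryos with and without the histone chaperone HIRA where Cre is driven by the *Tyr* promoter, which is active in the melanocyte lineage and, as the study notes, in some other lineages. HIRA WT was TyrCre::Hira wt/wt:tdTomato and HIRA KO was TyrCre::Hira fl/fl:tdTomato, both at E15.5 on a mixed background close to C57BL/6J. Live cells positive for the tdTomato reporter and negative for DAPI were sorted from trunk skin and sequenced as droplet 3′ UMI counts, with 1 library per genotype. The sort was aimed at melanoblasts; how macrophages came to be in it was not tested, and the Tyr-driven deletion was not measured in them.

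Macrophages settle in embryonic skin early, from yolk sac and fetal liver precursors, before the hair follicles and the pigment pattern are complete. They engulf dying cells, recycle iron and lipid, and secrete complement C1q, a recognition molecule assembled from the chains of *C1qa*, *C1qb* and *C1qc*. Tissue macrophages also differ among themselves: a *Lyve1*, *Folr2* and *Cd163* program marks resident cells that often lie along vessels, whereas *Ccr2*, *Plac8* and MHC class II genes mark cells closer to monocytes or to antigen presentation.

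The WT library held 1546 barcodes with 7073939 UMIs, of which 1540 passed the limits on genes and mitochondrial share. In the KO library 828 of 846 barcodes passed, out of 5049514 UMIs. The macrophages numbered 98 in WT, or 6.36% of the passing cells (95% exact Clopper-Pearson interval 5.20% to 7.70%), and 20 in KO, or 2.42% (1.48% to 3.71%). The KO share was lower by 3.95 points, written as KO minus WT -3.95 points (-5.53 to -2.25). With 1 library per genotype there is no spread between replicates, so nothing here was tested; every interval in the text covers counting error only. No barcode was shared between the libraries (0 shared).

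Macrophages were deeper than their neighbours. Their median was 5495 UMIs in WT (1683 to 13083) and 8125 in KO (4530 to 17666), against 3878 and 5169.5 in the other cells. A median of 1776 genes per macrophage was detected in WT and 2288.5 in KO, with median mitochondrial shares of 2.50% and 2.43%. Summed over the macrophages, WT gave 575695 UMIs and KO 176199. Levels below are these sums scaled to CPM, counts in 1000000 UMIs of the same cells; 3 counts, the limit that a count of 0 allows, equal 5.21 CPM in WT and 17 CPM in KO. Comparisons of levels between genes are on this 3′ UMI scale, where each transcript is counted once whatever its length.

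The marker sum left a gap at the limit of 8. In WT it ran from 10 to 294 with a median of 110, the lowest macrophages having 10, 11, 13, 16 and 19, and the highest cell outside within the melanoblast limit had 3. KO macrophages ran from 23 to 236 with a median of 91.5, the lowest having 23, 37, 47, 47 and 49, and 1 cell outside had 7. The melanoblast limit kept out 4 WT cells with marker sums of 86, 53, 155 and 13 beside 7, 24, 14 and 6 melanoblast UMIs; their depths of 14391, 25914, 17865 and 7007 UMIs were above the median. No doublet caller was run, so droplets with 2 cells among the deepest macrophages were not told from single cells.

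**Figure D1:**
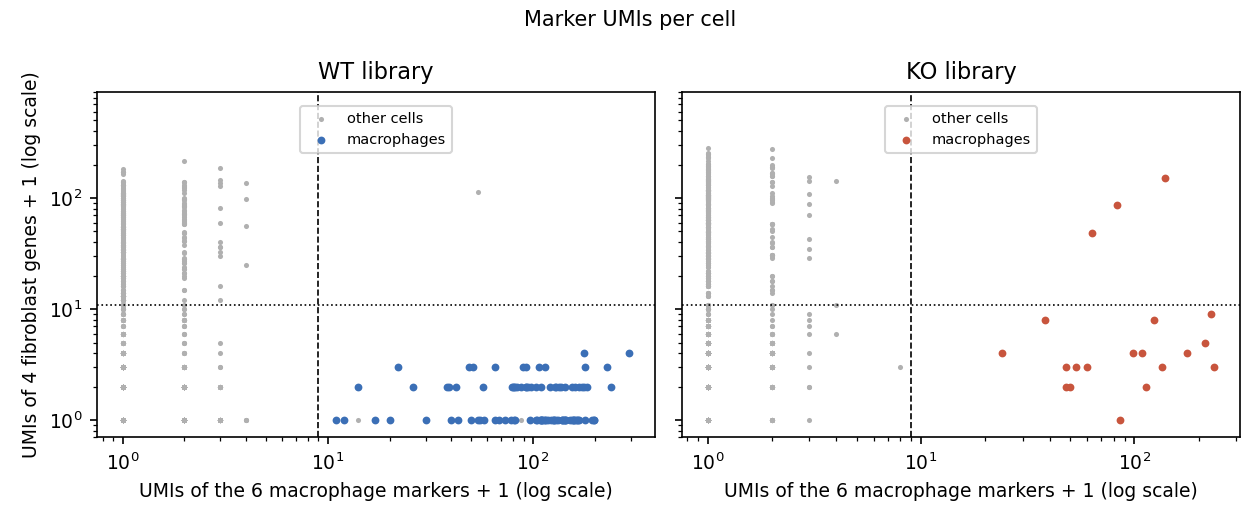
Each point is 1 cell passing the limits, in HIRA WT (left) and HIRA KO (right); the x axis is its UMIs of the 6 macrophage markers plus 1 and the y axis its UMIs of 4 fibroblast genes plus 1, both on log scales. The dashed line stands at 8 marker UMIs and the dotted line at 10 fibroblast UMIs; 3 KO macrophages and 0 WT macrophages lie above the dotted line.

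Among the macrophages, cells with at least 10 UMIs summed over the fibroblast genes *Col1a1*, *Col3a1*, *Lum* and *Dcn* were called fibroblast-rich. There were 0 of them in WT and 3 in KO. Numbering KO macrophages by depth, these were cell 1 (17666 UMIs, 86 of the fibroblast genes), cell 3 (14129 UMIs, 150) and cell 4 (13853 UMIs, 47), which are 3 of the 4 deepest. Every KO result below was recomputed on the other 17 KO macrophages (median 6901 UMIs), and the value without the fibroblast-rich cells is given for named genes and lists where it changed a call.

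The labels were checked against the genes that could contradict them. *Xist*, expressed from the inactive X chromosome of females, had 1374 UMIs in WT macrophages and 1 in KO, and its antisense partner *Tsix* 61 and 1. The Y-linked genes *Eif2s3y*, *Ddx3y*, *Uty* and *Kdm5d* had 0 UMIs in WT and 8, 4, 3 and 3 in KO. The WT embryo was thus female and the KO embryo male, so genotype, sex and embryo cannot be told apart in any KO to WT difference. *Hira* itself (chr16:18877037-18970309) had 3 UMIs in WT macrophages and 2 in KO; where its 3′ reads lie relative to the deleted stretch was not examined, so these counts do not check the deletion. The tdTomato transcript was found in 5.10% of WT macrophages (6 UMIs in 5 cells). In KO it was in 10.0% of them (2 UMIs in 2 cells, under the limit of 3 counts). The shares of the other cells, which were less deep, were 3.26% and 8.17%. Cre had 0 UMIs in the macrophages of both libraries, beside 19 and 16 in the other cells. The file labels do not name the embryos further; these sexes are those the study gives for its first WT and KO embryos, which it describes as littermates processed together.

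The transcripts that set macrophages apart from the other cells of their own library were first listed as a description, because the cells were chosen on these counts. A gene was said to lead when its level was at least 2 log2 units above that of the other cells, with 10 CPM added to both and at least 20 UMIs in the macrophages. In WT 311 of 3202 genes led (9.71%), and in KO 143 of 1177 (12.1%), or 133 of 897 without the fibroblast-rich cells. The lists shared 127 genes, 40.8% of the WT list and 88.8% of the KO list. Of the first 20 genes in each library, 11 were the same: *Aif1*, *C1qa*, *C1qb*, *C1qc*, *Ccl2*, *Cx3cr1*, *F13a1*, *Fcrls*, *Mrc1*, *Ms4a6b* and *Pf4*. *Ms4a6b* and *Ms4a6c* are close paralogs, and how the reads were divided between them is uncertain.

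Platelet factor 4, the chemokine encoded by *Pf4*, led both libraries. Its level was 9755 CPM in WT macrophages (9502 to 10014) against 52.9 in other cells, 7.28 log2 units higher, and 4790.0 CPM in KO macrophages (4472 to 5124), 7.70 log2 units higher. The 3 C1q chains followed: *C1qb* stood at 2934 CPM in WT (2796 to 3077) and 2753 in KO (2513 to 3009), *C1qc* at 2887 and 2168, and *C1qa* at 1787 and 1305. They lie side by side on the minus strand of chromosome 4 (GRCm38), *C1qb* at chr4:136880129-136886187, *C1qc* at chr4:136889804-136893065 and *C1qa* at chr4:136895917-136898803. The mannose receptor *Mrc1* reached 1032 CPM in WT and 613 in KO, and *Csf1r*, the receptor for the growth factor on which macrophages depend, 429 and 318.

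Some genes from the list of leading WT genes that the rule did not use are described singly here, and no common function was tested. *F13a1*, the A chain of coagulation factor XIII, had 1860.4 CPM in WT macrophages against 16.7 in other cells and 1095 in KO macrophages. *Sepp1*, the selenium carrier selenoprotein P, stood at 3061 and 1703 CPM, and the endocytic adaptor *Dab2* at 1459 and 1010.2. The scavenger receptor *Stab1* had 782 CPM in WT and 420.0 in KO, and *Fcrls*, an Fc receptor-like gene typical of yolk sac-derived macrophages such as microglia, 478 and 318. Further down the same list were *Ms4a7* (431 and 216 CPM), the fractalkine receptor *Cx3cr1* (551 and 488) and the actin-binding *Aif1* (474 and 579). These are genes of tissue macrophages that the rule did not use, read from cells chosen on other genes of the same type.

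By abundance alone, WT macrophages were topped by the actin-sequestering *Tmsb4x* at 27457 CPM (KO 23383) and the ferritin light chain *Ftl1* at 20186 (KO 12798). Next came *Rps29*, *Malat1* and *Rpl41*, followed by the lipid carrier *Apoe* at 10319.7 CPM (KO 6538), *Pf4*, and the ferritin heavy chain *Fth1* at 7464 (KO 4932), then *Rps28* and *Rpl37a*. A chemokine, an apolipoprotein and both ferritin chains thus stood among ribosomal genes in the first 10.

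The promoters of the 20 leading WT genes, which include the 6 markers, were searched for a letter string because these genes lead together. The string was GAGGAA on either strand (TTCCTC on the other), the core bound by ETS factors such as PU.1, the product of *Spi1*. The RefSeq promoter table (GRCm38.p6, 250 bases before to 50 after each gene's start, 300 bases) matched 13 of the 20 genes, and 11 of those 13 (84.6%) held the string, beside 28.3% of 27025 genes (7652). Of the 13, 4 are markers that the rule put in the list and all 4 hold it; of the other 9, 7 do. These shares are a description and no test. *Cx3cr1* and *Ms4a6b* did not hold it in this window. No entry was matched for *C1qa*, *Csf1r*, *Lyve1*, *Ccl24*, *Ccl2*, *Maf* and *Slc40a1*. Windows are shown for C1q chains, 2 other markers and 1 gene the rule did not use, on the gene's own strand with the string in capitals, at chr4:136886213-136886242 (minus), chr4:136893090-136893119 (minus), chr5:90772415-90772434 (plus), chr2:14229367-14229396 (plus) and chr14:31168654-31168683 (minus):
C1qb: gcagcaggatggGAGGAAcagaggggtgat
C1qc: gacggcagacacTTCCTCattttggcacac
Pf4: tctgcagagcacTTCCTCat
Mrc1: aaaagggacagcTTCCTCtgtcctcctttt
Stab1: gctgatacgcagGAGGAAatcctggtgggt
A match describes these letters and says nothing of whether the factor binds there. *Spi1* transcripts stood at 419 CPM in WT macrophages and 335 in KO.

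The KO and WT macrophages were then compared, to ask what macrophages express in skin of an embryo with the Tyr-driven deletion. For the KO to WT comparison a gene had to have at least 50 UMIs summed over the macrophages of both libraries, and it was called when its log2 ratio, with 10 CPM added to both levels, was at least 1 either way. Of 1856 genes so tested, 64 were higher in KO (3.45%) and 73 lower (3.93%), the latter including *Xist* and *Tsix*. The counts given for each list below are to be read beside these shares. The median log2 ratio was -0.04, with a 5th percentile of -0.89 and a 95th of 0.79. Scaling by trimmed mean of M-values (TMM) moved the median to -0.18 and the split to 40 higher and 107 lower, so directions here are relative to that shift. Without the fibroblast-rich cells 45 of the 64 and 53 of the 73 still had such a ratio when no UMI minimum was set again; with the minimum set again on the cells kept, 1740 genes were tested, 36 of them higher and 72 lower. In a setting chosen after seeing the data, the cell with most UMIs of each gene was taken out of each library: 35 of the 64 and all 73 of the lower genes were still past it, but taking 1 of 20 cells removes more than taking 1 of 98.

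**Figure D2:**
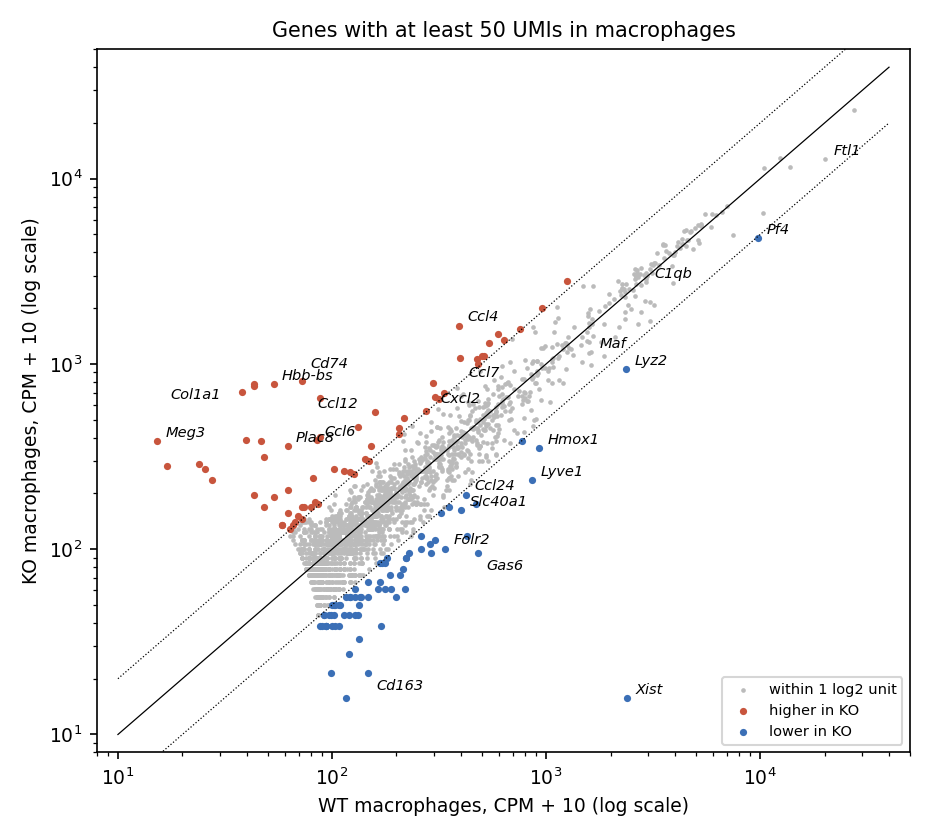
Each point is 1 of 1856 genes with at least 50 UMIs, with its level in HIRA WT macrophages on the x axis and in HIRA KO macrophages on the y axis, as CPM plus 10 on log scales. The dotted lines lie 1 log2 unit from equality; 64 genes are above the upper line and 73 below the lower line.

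The pan-macrophage list, 15 genes such as the adaptor *Tyrobp*, the lysosomal *Cd68* and *Adgre1* (F4/80), summed to 6491 CPM in WT and 5403 in KO. Of its 13 genes with enough UMIs, 0 were higher and 0 lower in KO, with a median log2 ratio of -0.11. *Tyrobp* was the most abundant at 2760.1 and 1901 CPM. Fc receptors and their adaptors summed to 8254 and 5749 CPM, led by *Fcer1g* (3894 and 2741 CPM), the signalling chain shared by Fc receptors. Among 7 tested genes of that list the only one past the fold was *Trem2*, a lipid-sensing receptor, with 219 CPM in WT and 85.1 in KO (log2 ratio -1.27). Complement genes other than C1q had 0 of 4 past the fold (median -0.22, summed 929 and 778 CPM), with the C5a receptor *C5ar1* highest in WT at 257 CPM and properdin, *Cfp*, highest in KO at 238 CPM. Cytokine and growth factor receptors had 0 of 2 (median -0.27, summed 611 and 516 CPM), with *Ifngr1* most abundant. Over these 4 lists no tested gene was higher in KO, which with 3.45% higher among all genes is too few genes to read.

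Transcription factors of macrophages summed to 3811 CPM in WT and 3990 in KO. *Maf*, a factor of resident macrophages, was the highest at 1612 and 1146 CPM, followed by *Cebpb* at 669 and 1010.2 and by *Zeb2* at 445 and 448. Of 7 tested, 2 were higher in KO (median of the list 0.24): *Klf2*, a factor of quiescence, went from 195 to 443 CPM (log2 ratio 1.15), and *Id2*, an inhibitor of E proteins, from 111 to 250 CPM (1.10). Both lay close to the fold: without the highest cell in each library, a setting that moves the median of all genes from -0.04 to -0.22, they were at 0.95 and 0.93, and under TMM scaling *Klf2* was at 0.998 and *Id2* at 0.96. In the other cells *Klf2* was at 23.0 CPM in WT and 117 in KO, so its rise was not particular to macrophages. *Id2* was at 221 CPM in the other WT cells and 126 in the other KO cells. *Sall1* and *Gata6*, which mark microglia and peritoneal macrophages, had 0 UMIs in both libraries.

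Several genes of *Lyve1*-type resident macrophages were lower in KO. The 12 genes of that list summed to 4209 CPM in WT macrophages and 1901 in KO, a log2 ratio of -1.15 (-1.32 to -0.98), and -0.81 (-0.99 to -0.64) without the fibroblast-rich cells, which is short of 1. Of 7 tested, 5 were lower in KO and 0 higher, with a median of -1.74 where the median over all tested genes was -0.04. Without the fibroblast-rich cells that median was -1.34. The most abundant gene of the list, *F13a1* (-0.76), and *Ninj1* (-0.36) were tested and not past the fold. With too few UMIs to be tested, *Timd4* (9 and 8 UMIs, 15.6 and 45.4 CPM) and *Cbr2* (21 and 8 UMIs, 36.5 and 45.4 CPM) were not lower in KO, and *Vsig4* and *Cd209g* had 0 in both libraries.

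*Lyve1*, a hyaluronan receptor, had 490 UMIs in WT macrophages and 40 in KO, or 851 CPM (777 to 930) and 227 CPM (162 to 309). The log2 ratio without added CPM was -1.91 (-2.41 to -1.44) and -1.86 with it, or -1.67 without the fibroblast-rich cells. *Cd163*, the receptor that takes up haptoglobin with haemoglobin, fell from 79 UMIs to 2 (137 and 11.4 CPM), a log2 ratio of -3.60 (-6.67 to -1.70) without added CPM and -2.79 with it. Its 2 KO UMIs are under the limit of 3 counts. *Folr2*, a folate receptor, stood at 188 and 16 UMIs (327 and 90.8 CPM; -1.74 with 10 CPM added).

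*Gas6*, a ligand of the receptors through which dying cells are engulfed, had 270 UMIs in WT and 15 in KO (469 and 85.1 CPM). Its log2 ratio was -2.46 (-3.32 to -1.71) without added CPM and -2.33 with it; as 8 of the 15 KO UMIs sat in 1 cell, the ratio without the highest cells was -3.21. *Fcna*, a ficolin of the lectin pathway of complement, had 118 and 12 UMIs (205 and 68.1 CPM, log2 ratio -1.46), 9 of the 12 in 1 cell, and without the highest cells -2.79. All 5 of these genes were thus called lower, and each was still called without the fibroblast-rich cells.

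Shares of cells show the same genes at equal depth. With every macrophage thinned to 2000 UMIs, which 97 WT and all 20 KO cells allowed, *Lyve1* was detected in 59.8% of WT and 20% of KO macrophages; before thinning, 68.4% and 65.0%. In melanoblasts (median depths 4714 UMIs in WT and 5839.5 in KO), which should lack *Lyve1*, the shares were 1.39% and 1.47%, or 0.469% and 0.735% thinned. *Folr2* was in 42.3% of WT and 20% of KO macrophages after thinning (69.4% and 40% before), *Cd163* in 16.5% and 0% (34.7% and 10.0%), and *Gas6* in 60.8% and 15% (76.5% and 25.0%). For *Gas6* the thinned melanoblast shares were 2.82% and 12.5%, and 11.4% and 28.7% before thinning, so the KO macrophage share is near that of cells outside the lineage. In KO the 40 *Lyve1* UMIs lay in 13 cells, and 22 of them were in 3 cells. The median over the 20 KO macrophages was 1 UMI, and most of the 13 cells had none left after thinning.

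WT macrophages varied in *Lyve1* as well. At 2000 UMIs, 39 WT macrophages had 0 *Lyve1* UMIs, 16 had 1 and 42 had 2 or more, at median depths of 4962, 5973 and 5649 UMIs; in KO the numbers were 16, 2 and 2. *Pf4* stood at 12881 CPM in the WT group with 2 or more and at 6474 in the group at 0, and *Mrc1* at 1429 and 744. In the opposite direction went *Apoe* (7429 and 16256 CPM), the lysozyme *Lyz2* (1643 and 4103) and *Ifitm3* (190.5 and 1359). *Ccr2* had 0 UMIs in the *Lyve1*-high group and 15 in the group at 0, while *C1qb*, the C1q chain compared, was at 2857 and 3218 CPM. Among other genes that the rule did not use, *Ccl2* (1071 and 359 CPM), *Slc40a1* (583 and 295), *F13a1* (2333 and 1551) and *Stab1* (964 and 551) were higher in the *Lyve1*-high group, and *Fcna* (179 and 397), a gene of the same resident list, was not. The resident genes *Folr2* (369 and 321), *Gas6* (643 and 513) and *Cd163* (167 and 64.1) each had overlapping counting intervals in these groups. So did *Slc40a1* (432 to 771 and 187 to 442 CPM) and *Fcna* (99.9 to 295 and 270 to 564 CPM). The levels of *Pf4* and *Mrc1* describe genes the rule used; a cell at 0 after thinning may still carry the transcript.

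The cells at 0 *Lyve1* UMIs after thinning were also set side by side. In KO these 16 cells include ones that had *Lyve1* before thinning, since 13 of 20 had it then, and the 4 KO cells without *Pf4* and *Mrc1* described later; the WT group likewise holds the 3 such WT cells, in which *Lyz2* was at 12049 CPM and *Ifitm3* at 4460 CPM. In the cells at 0, *Gas6* had 513 CPM in WT and 31.3 in KO (1 UMI), *Folr2* 321 and 93.8, and *Fcna* 397 and 31.3 (1 UMI). *Lyz2* stood at 4103 and 906 CPM and *Pf4* at 6474 and 4031. *Hmox1* (949 and 688 CPM) and *Slc40a1* (295 and 219) differed less here than over all macrophages, with overlapping counting intervals. In these same cells *Ccl12* went the other way, from 25.6 to 906 CPM, as did *Ccl4* (564 and 1375), *Ccl2* (359 and 1094), *Ccl7* (308 and 906) and *Cxcl2* (154 and 719), while *Ccl3* (782 and 562.5) and *Ccl24* (692 and 250) were not higher in KO. What the mix of cells adds to these values was not tested.

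Genes of iron and haem handling summed to 30384 CPM in WT macrophages and 18882 in KO, with *Ftl1* the most abundant. Of 9 tested, 0 were higher and 4 lower in KO, with a median of -0.94 (-0.77 without the fibroblast-rich cells). *Hmox1*, which breaks haem open, stood at 917 and 341 CPM (log2 ratio -1.40, and -0.89 when CPM are averaged over cells), the iron exporter *Slc40a1* at 393 and 153 (-1.30), and the biliverdin reductase *Blvrb* at 763 and 375 (-1.01, and -0.87 without the fibroblast-rich cells, which is short of the fold). *Cd163* was the fourth. These 4 genes act in haemoglobin uptake, haem breakdown and iron export. They are single calls, and whether any of these processes differed was not tested.

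Lysosomal genes summed to 14395 and 9523 CPM, led by cathepsin B, *Ctsb* (2673 and 1635). Of 18 tested, 3 were lower and 0 higher, with a median of -0.50, beside 3.93% lower and 3.45% higher over all tested genes. The 3 were *Lyz2* (2350.2 and 931 CPM, -1.33), cathepsin L, *Ctsl* (462 and 165, -1.44) and the acid lipase *Lipa* (97.3 and 28.4, -1.48). The *Lyz2* call rested on the marker limit: with at least 5 marker UMIs, which adds the KO cell at 7, its ratio was -0.71. Lipid genes summed to 12401 and 8173 CPM, led by *Apoe*, with 3 of 8 lower and 1 higher (median -0.61). The lower ones were the cholesterol exporter *Abca1* (250.1 and 90.8 CPM, -1.37), *Lipa* and *Trem2*; the higher one, the fatty acid carrier *Fabp5* (116 and 244 CPM, 1.01), was also higher in the other KO cells and was at 0.73 without the fibroblast-rich cells and 0.86 under TMM. Scavenger receptors summed to 1897 and 1220.2 CPM, led by *Stab1*, with 3 of 9 lower (*Cd163*, *Cd36*, *Trem2*) and 1 higher, the engulfment receptor *Lrp1* (57.3 and 131 CPM, 1.06, and 0.93 under TMM); the median was -0.76. *Cd36*, a receptor for oxidised lipids, stood at 104 and 34.1 CPM (-1.37). *Cd163*, *Trem2* and *Lipa* are each in more than 1 of these lists, so the lists' counts are not separate.

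Other growth factors and cytokines summed to 2076 and 1396 CPM (5 tested, 1 lower, 0 higher, median -0.58); *Gas6* was the lower one. Progranulin, *Grn*, was highest with 806 and 619 CPM, and *Igf1* stood at 335 and 210.0. Of the microglia-type list, which summed to 1443 and 1022 CPM with *Cx3cr1* highest, 1 of 3 was lower (*Trem2*; median -0.57). *Cx3cr1* was likewise the main chemokine receptor (list sum 703 and 726 CPM, 0 of 2 past the fold, median 0.00).

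Among the largest decreases outside these lists were *Hist3h2a*, a histone H2A gene (51 and 2 UMIs, log2 ratio -2.21), the calcium-binding *S100a1* (92 and 5, -2.15) and the ubiquitin ligase *Wwp2* (63 and 3, -2.14). *Bin1*, a membrane-curving protein, had 239 and 19 UMIs (-1.85), *Txnip*, an inhibitor of thioredoxin, 121 and 9 (-1.85), the creatine synthesis enzyme *Gatm* 109 and 8 (-1.85), and the cell cycle inhibitor *Cdkn1a* 103 and 9 (-1.63). None of these 7 was past the fold in the other cells of the libraries, where *S100a1* came nearest with -0.86. Of all 73 lower genes, 3 were also lower in the other cells. These were the sex-linked *Xist* (-7.36 there) and *Tsix* (-3.48), and the rule marker *Pf4* (-1.45). The share of all tested genes past the fold in the other cells is not given here. These counts therefore do not show that the decreases are particular to macrophages.

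Most tested chemokines were higher in KO, by an amount that depended on a few cells. The list summed to 2974 CPM in WT macrophages (2835 to 3118) and 6606 in KO (6232 to 6997), a log2 ratio of 1.15 (1.04 to 1.26). Of 9 tested, 6 were higher and 1 lower, with a median of 1.43 (1.80 without the fibroblast-rich cells). WT macrophages held a median of 12.5 chemokine UMIs each (0 to 104), with a UMI in 95 of 98 cells, and KO macrophages 24 (4 to 297), with a UMI in 20 of 20. These counts are at unequal depth; thinned to 2000 UMIs, the medians were 5 (0 to 40) in 97 WT cells and 8.5 (1 to 41) in 20 KO cells.

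The genes lie in 2 groups on chromosome 11. In the first, *Ccl2* (chr11:82035571-82037453), *Ccl7* (chr11:82045712-82047525) and *Ccl12* (chr11:82101845-82103400) encode ligands that draw monocytes. *Ccl12* stood at 149 CPM in WT and 539 in KO (log2 ratio 1.78), *Ccl7* at 386 and 1061 (1.44), and *Ccl2* at 611 and 965 (0.65, not past the fold). The second group holds *Ccl9* (chr11:83572919-83578636), *Ccl6* (chr11:83587882-83593087), *Ccl3* (chr11:83647844-83649355) and *Ccl4* (chr11:83662584-83664683). *Ccl4* had 384 and 1600.5 CPM (2.03), *Ccl6* 74.7 and 380.3 (2.2, with a UMI in 19 WT and 5 KO cells), *Ccl9* 196 and 409 (1.02, and 0.87 under TMM) and *Ccl3* 448 and 602 (0.42, not past the fold, and -0.34 without its highest cells). Outside both groups, *Cxcl2*, a neutrophil attractant, went from 285 to 783 CPM (1.43), while the eotaxin *Ccl24* was lower, 412 and 187 CPM (-1.10, and -0.81 without the fibroblast-rich cells). Genes past the fold were thus found in both groups, but not every gene of either.

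A few cells carried much of this. KO cell 2 (15234 UMIs) held 297 of the 1164 chemokine UMIs in KO, KO cell 5 held 222 and KO cell 14 held 113. Without these 3 cells, a setting chosen after seeing the data, the sum in KO was 3710.1 CPM, a log2 ratio of 0.32 (0.18 to 0.46), and with 10 CPM added *Ccl4* (1.58), *Ccl12* (1.30) and *Ccl6* (1.01) were past the fold, *Cxcl2* (0.56) and *Ccl9* (0.30) were not, and *Ccl7* was at -0.56. When the 15 WT cells with most chemokine UMIs, a like share, were left out as well, the sums were 1880.0 and 3710.1 CPM, a log2 ratio of 0.98 (0.82 to 1.14), and *Ccl7* was at 0.38. In that setting *Ccl4* (3.07), *Cxcl2* (1.87), *Ccl12* (1.62) and *Ccl6* (1.01) were past the fold with 10 CPM added. *Ccl9* (0.30) and *Ccl24* (-0.44) were not. How much of the chemokine difference is seen thus depends on which of the highest cells are kept. Without cell 2 alone, the log2 ratio of the sum was 0.86. Ratios without added CPM were then 2.48 for *Ccl6*, 1.65 for *Ccl4*, 1.52 for *Ccl12*, 1.24 for *Ccl7*, 1.17 for *Ccl9*, 1.11 for *Cxcl2*, 0.31 for *Ccl2* and -0.31 for *Ccl3*. When each gene's own highest cell was left out of both libraries, *Ccl7* (0.98) and *Ccl9* (0.47) were no longer past the fold, while *Ccl4* (1.78), *Ccl12* (1.57), *Cxcl2* (1.39) and *Ccl6* (1.05) still were.

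By share of cells thinned to 2000 UMIs, *Ccl4* was detected in 21.6% of WT and 50.0% of KO macrophages (26.5% and 80.0% before thinning), *Ccl12* in 16.5% and 45.0% (32.7% and 70.0%) and *Ccl7* in 25.8% and 45.0% (42.9% and 60.0%). In melanoblasts the unthinned share with *Ccl4* was 0.464% in WT and 5.15% in KO, and 0% of KO melanoblasts had *Ccl12*, so the macrophage shares were well above those of cells that should lack these genes. Genes induced by tissue dissociation summed to 6193 and 6277 CPM (13 tested, 0 higher and 1 lower, *Fosb* at -1.21; median 0.26), with *Fos* highest at 1459 and 1396 CPM; their part in the chemokine levels was not tested. The interferon list had 0 of 2 past the fold (1272 and 1373 CPM, median -0.12), with *Ifitm3* highest at 603 and 840.0 CPM.

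**Figure D3:**
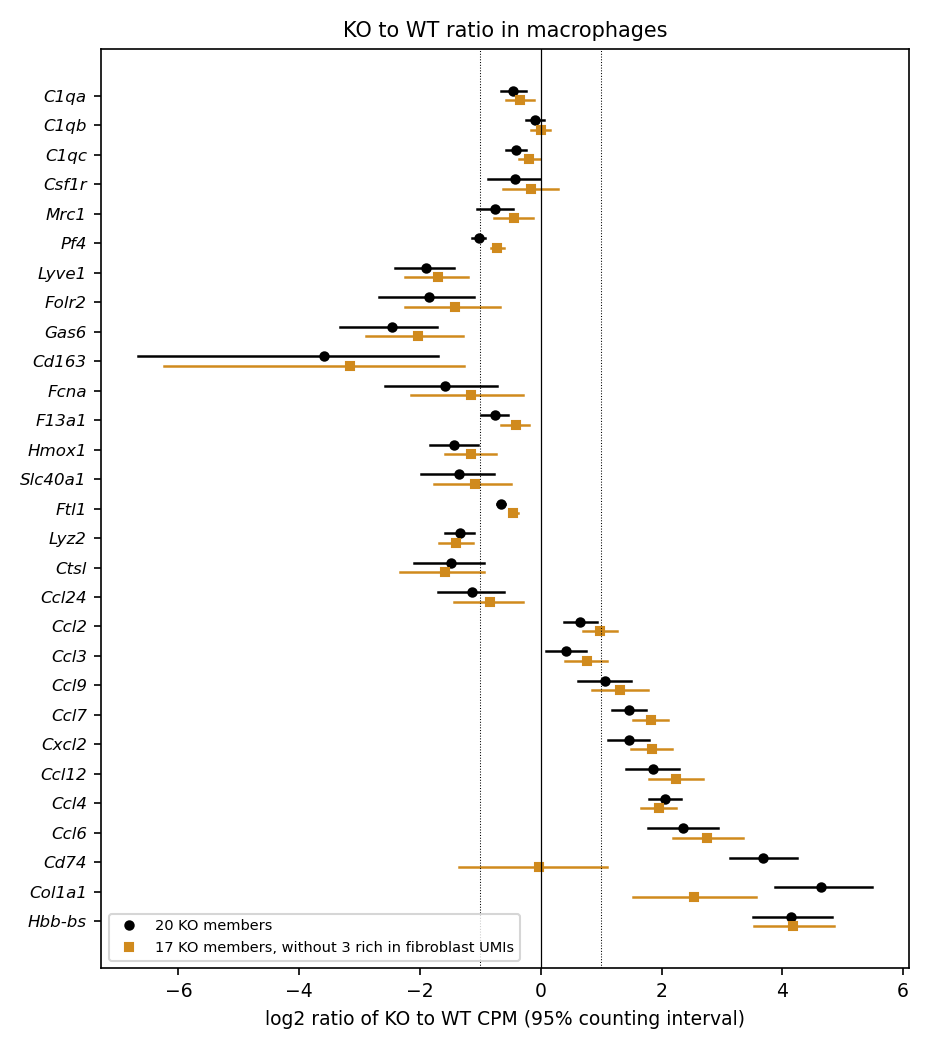
The x axis is the log2 ratio of HIRA KO to HIRA WT macrophages for 29 genes, without added CPM, and the bars are 95% exact binomial intervals of counting error; black circles use all 20 KO macrophages and orange squares the 17 that are not fibroblast-rich. *Lyve1* (-1.91) and *Gas6* (-2.46) lie left of 0 and *Ccl4* right of it with both sets of cells, whereas *Cd74* is far right of 0 only with all 20.

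Some macrophages lacked 2 of the markers, and they are described as a group chosen after seeing the data on genes that the rule used, so their shares are not a finding. In 4 of 20 KO macrophages (20%, 5.73% to 43.7%) and 3 of 98 WT macrophages (3.06%, 0.636% to 8.69%), both *Pf4* and *Mrc1* had 0 UMIs, at median depths of 5403.5 and 3407 UMIs. They were KO cells 4, 14, 17 and 18, and they passed through C1q: *C1qb* stood at 2561 CPM in them and at 3208 in the WT ones. The resident genes *Lyve1*, *Folr2*, *Cd163*, *Gas6* and *Fcna* had 0 UMIs in all 7. These cells held 57 of the 62 KO UMIs of *Plac8*, a monocyte gene, and 11 of the 14 of *Ccr2*, the receptor with which monocytes follow *Ccl2*. The 3 WT cells likewise held 13 of 30 *Plac8* and 7 of 22 *Ccr2* UMIs. In both genotypes, then, C1q-positive cells without *Pf4* and *Mrc1* carried monocyte genes.

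The monocyte list as a whole summed to 156 CPM in WT and 624 in KO, with *Plac8* most abundant (52.1 and 352 CPM) and the only tested gene (log2 ratio 2.54). *Ly6c2* had 1 UMI in each library, and *Chil3* had 0 in both. One KO cell, cell 17, held 36 of the 62 *Plac8* UMIs, and without the highest cells the ratio was 1.66. When the 7 cells without *Pf4* and *Mrc1* were left out, in a setting chosen after seeing the data, *Plac8* stood at 30.2 CPM in WT and 34.0 in KO (0.13 with 10 CPM added). Within the 7 cells it stood at 1017 and 1947 CPM, and 36 of the KO UMIs there are those of cell 17. The monocyte list without these cells was at 88.8 and 177 CPM, a log2 ratio of 0.99 (0.25 to 1.71). After thinning *Plac8* was in 11.3% of WT and 10.0% of KO macrophages (13.3% and 40% before).

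The resident and chemokine contrasts were also seen without these cells. Among the 95 WT and 16 KO macrophages with *Pf4* or *Mrc1*, the log2 ratio of the chemokine sum was 1.10 (0.98 to 1.21) and that of the *Lyve1*-type sum -0.98 (-1.15 to -0.81). *Lyve1* was at 870.5 and 272 CPM (-1.68, -2.18 to -1.21, without added CPM), *Gas6* at 479.6 and 102 (-2.23, -3.09 to -1.48) and *Ccl12* at 153 and 551 (1.85, 1.40 to 2.31). *Hmox1* differed more among them, 936 and 204 CPM (-2.2, -2.78 to -1.67), because 30 of its 60 KO UMIs were in the 4 cells left out. Short of the fold among them were *Klf2* (0.98), *Id2* (0.92), *Ccl9* (0.94), *Lrp1* (0.95) and *Blvrb* (-0.87), all called over all macrophages. The level of *Pf4*, a marker of the rule, was 9977 and 5745 CPM among them, a log2 ratio of -0.80 with 10 CPM added; over all macrophages it was -1.02, and -0.72 without the fibroblast-rich cells, values that describe a gene the rule used.

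The level of antigen presentation genes in KO rested on 1 cell. The MHC class II and co-stimulation list summed to 248 CPM in WT and 1442 in KO, a log2 ratio of 2.54, with 1 of 2 tested genes higher (*Cd74*) and 1 lower (*Cd86*), a median of 1.17 and *Ciita* at 0 in both. *Cd74*, the invariant chain of MHC class II, had 36 UMIs in WT and 141 in KO (62.5 and 800.2 CPM, log2 ratio 3.48). KO cell 4, which was fibroblast-rich and had neither *Pf4* nor *Mrc1*, held 131 of those 141, with 40 UMIs of *H2-Aa*, 24 of *H2-Ab1* and 29 of *H2-Eb1*. Without the fibroblast-rich cells the sum stood at 153 CPM in KO (log2 ratio -0.70), the median was -0.71 and *Cd74* was at -0.03. The co-stimulatory *Cd86* was lower, with 137 and 56.8 CPM (-1.14, and -1.40 without the fibroblast-rich cells). In melanoblasts and glia of the KO library *Cd74* was at 1.14 and 8.12 CPM, so cell 4 carried it far above the free RNA there; whether it is 1 cell or a doublet was not tested.

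Dendritic cell genes, which would mark another source of MHC class II, were found for 4 (WT) and 3 (KO) of 10 genes, summing to 22.6 and 39.7 CPM, with *Siglech* highest in WT (12.2) and *Batf3* in KO (28.4); *Xcr1*, *Clec9a*, *Cd209a* and *Ccr7* had 0. Langerhans cell genes summed to 127 and 267 CPM, nearly all from *Id2*, the 1 tested gene; *Cd207*, which defines Langerhans cells, had 0 and 1 UMI, and *Itgax*, *Cd24a* and *Itgae* had 0. Without the fibroblast-rich cells, which include cell 4, the dendritic sum in KO was 7.66 CPM in place of 39.7; the part of dendritic cell RNA in cell 4 was not tested.

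Cycling genes were present in both libraries. The S phase list summed to 851 and 664 CPM (4 tested, 0 higher, 1 lower, *Tyms* at -1.23; median -0.72, and -1.11 without the fibroblast-rich cells), with *Pcna* highest in WT and *Dut* in KO. *Slbp*, which binds histone mRNA, had 97.3 and 62.4 CPM (-0.57) and was past the fold without the fibroblast-rich cells (-1.40), where the log2 ratio of the list's sum was -0.69 in place of -0.36. The G2/M list summed to 1179 and 1379 CPM (6 tested, 0 past the fold, median 0.24), with *Birc5* highest at 186 and 278. At least 5 G2/M UMIs were held by 25 of 98 WT macrophages (25.5%, 17.2% to 35.3%) and 9 of 20 KO macrophages (45.0%, 23.1% to 68.5%). At 2000 UMIs these shares were 11.3% (5.80% to 19.4%) and 15% (3.21% to 37.9%), beside 22.8% and 20.6% of melanoblasts. With 20 KO macrophages these intervals are too wide to tell whether cycling differed.

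Fibroblast genes were among the largest increases in KO, where *Meg3* ranked first. All 12 were found in KO macrophages and 10 in WT, summing to 3019 and 182 CPM (643 in KO without the fibroblast-rich cells; other cells 9288 in KO and 4514 in WT), with *Col1a2* highest in KO (766 CPM) and *Col3a1* in WT (33.0); *Fbn1* and *Pdgfra* had 0 in WT. All 4 tested genes were higher, with a median of 4.16, or 1.92 without the fibroblast-rich cells. *Col1a1*, a chain of type I collagen, had 16 UMIs in WT and 122 in KO (27.8 and 692 CPM, log2 ratio 4.22, and 2.18 without them). *Col1a2* was at 4.17 (2.05), *Col3a1* at 4.14 (1.78) and *Dcn* at 3.40 (1.13), the value without those cells in parentheses. *Meg3*, an imprinted long RNA, had 3 and 66 UMIs (4.66), 51 of the 66 in 1 cell, and stood at 1.67 without the fibroblast-rich cells.

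With *Meg3* came *Itm2a* (4.06, and 3.20 without the fibroblast-rich cells) and the imprinted *Cdkn1c* (3.30 and 1.66) and *Dlk1* (3.05 and 1.74). *Col1a1* was also at 390 CPM in KO melanoblasts and 605 in KO glia, beside 161 in the 17 KO macrophages that are not fibroblast-rich; *Itm2a* was at 272 in KO melanoblasts and 146 in those 17, and *Meg3* at 249 and 38.3. The fibroblast limit used *Col1a1* and left those 17 cells with low counts of it. Their levels are therefore not ranked against those of the other cell types. Over all 20 KO macrophages *Col1a1* was at 692 CPM, *Itm2a* at 272 and *Meg3* at 375. In KO glia *Itm2a* was at 451 and *Meg3* at 573. The part of fibroblast RNA in these increases was not tested.

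Blood and epidermal genes were also measured in cells of other lineages. The erythroid list had 4 (WT) and 5 (KO) of 9 genes, summing to 208 and 1345 CPM (other cells 3106 and 25502), with *Hbb-y*, *Hba-x* and *Hbb-bh1* at 0. *Hbb-bs*, an adult beta globin, had 25 and 135 UMIs (43.4 and 766 CPM, log2 ratio 3.86) in macrophages, 43.9 and 678 CPM in melanoblasts and 46.4 and 625 in glia (glia median depths 3556.5 and 4410 UMIs). Its KO shares were 100%, 97.8% and 93.3% of macrophages, melanoblasts and glia, or 90.0%, 76.5% and 73.6% thinned: a like level in all 3 types. *Hba-a2* (3.59) rose with it; globin paralogs (*Hba-a1* and *Hba-a2*, *Hbb-bs* and *Hbb-bt*) are hard to tell apart by short tags. *Hbb-bt*, highest in WT at 141 CPM, was at 0.26, or 2.11 without the highest cells, as 1 WT cell held 66 of the 120 WT globin UMIs.

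Keratinocyte genes had 6 and 7 of 8 found, summing to 34.7 and 352 CPM (other cells 387 and 7304), *Krt10* highest at 12.2 and 90.8, with *Krt5* and *Krtdap* at 0 in WT. The epidermal galectin *Lgals7* (3.11) was at 227 CPM in KO macrophages, 454 in KO melanoblasts and 395 in KO glia, and in WT at 17.4, 136 and 26.4. *Krt10* was at 323 in KO melanoblasts and 314 in KO glia, so both epidermal genes varied with the cell type as well as the library. Neutrophil genes had 5 of 9 in each library, summing to 27.8 and 187 CPM (other cells 997 and 3260), *Ltf*, *Retnlg* and *Cxcr2* at 0; *S100a8*, the highest at 13.9 and 119 CPM, was at 114 and 101 in KO melanoblasts and glia. Mast cell genes had 5 and 3 of 8, summing to 153 and 45.4 CPM (other cells 3842 and 252), with *Gata2*, *Ms4a2* and *Tpsab1* at 0 and *Cma1* highest at 71.2 and 22.7; in melanoblasts and glia it was at 53.1 and 67.2 in WT and at 10.3 and 7.10 in KO, where the 4 macrophage UMIs leave an interval of 6.19 to 58.1 CPM. *Hbb-bs* and *S100a8* in KO thus had like levels in the 3 types, and the 2 epidermal genes were lower in macrophages than in melanoblasts and glia. The KO to WT ratios of these genes are not read as expression by macrophages, and the part of free RNA in them was not tested.

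**Figure D4:**
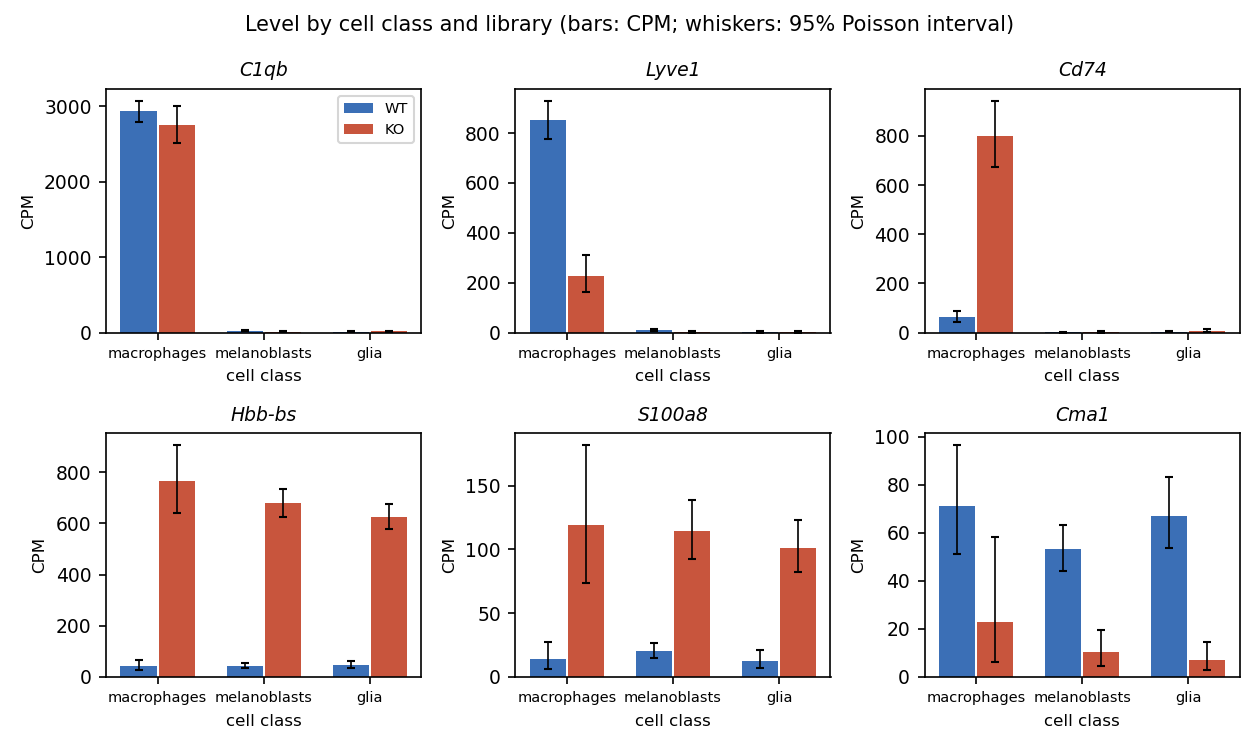
Bars give the level in CPM of 6 genes in macrophages, melanoblasts and glia of HIRA WT and HIRA KO, and whiskers are 95% exact Poisson intervals. *C1qb* (2934 and 2753 CPM) and *Lyve1* (851 and 227) stand in macrophages, while *Hbb-bs* is at 766, 678 and 625 CPM in the 3 KO types.

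The remaining lists of other types had small sums. Lymphoid genes had 2 and 0 of 10 found (3.47 and 0 CPM, with *Nkg7* among the highest in WT), endothelial genes 6 and 2 of 9 (41.7 and 17 CPM, *Egfl7* highest, *Tie1* and *Emcn* at 0) and pericyte genes 0 and 3 of 6 (0 and 22.7 CPM, *Rgs5*, *Kcnj8* and *Abcc9* at 0). Melanoblast genes, limited by the rule, had 7 and 4 of 8 (109 and 102 CPM, other cells 3481 and 1644, *Ptgds* highest, *Tyrp1* at 0) and glial genes 8 and 5 of 9 (93.8 and 56.8 CPM, other cells 1290.5 and 1106, *Fabp7* highest in WT and *Sox10* in KO, *Cdh19* at 0). What these small sums contribute to the KO to WT ratios was not tested.

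A last group of increases came from pseudogenes. Of the 64 genes higher in KO, 9 are annotated as pseudogenes, 6 of them named after ribosomal proteins (*Gm10020*, *Gm10269*, *Gm8730*, *Rpl10-ps3*, *Rpl23a-ps3*, *Rpl36-ps3*, *Rpl7a-ps5*, *Rpl9-ps6* and *Rps26-ps1*), and of the 73 lower genes 0 are. Their median log2 ratio was 1.12 in macrophages and 0.68 in the other cells, where 0 of them were past the fold. The 21 pseudogenes among all tested genes had medians of 0.95 and 0.66, so in this pair of libraries the median was above 0 in both cell groups. The study lists *Gm8730* and *Rpl23a-ps3* among genes lower in KO melanoblasts and glia; in the other cells here they were at 0.58 and 0.85, but those values pool all other cell types of 1 pair of libraries, whereas the study's come from more embryos and from each type apart. Reads of pseudogenes are hard to tell from those of their parents. Over all 64 higher genes, 17 were also higher in the other cells, and of the 73 lower genes 3 were also lower there. The share of all tested genes past the fold in the other cells is not given here, so these counts are not compared.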

How the data were processed

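The deposited values are raw UMI counts per gene and cell barcode, which the authors made with Cell Ranger 2.2.0 on a custom mm10 reference, according to the submitters' processing notes. The reference also holds tdTomato and Cre. Cells and lists were chosen with earlier results of these data known. From the files, macrophages were found by the rule given above, their UMIs summed per library and scaled to CPM, with exact Poisson, Clopper-Pearson and conditional binomial intervals (95%). With 1 library per genotype no test was run. Thinning drew 2000 UMIs per cell without replacement (seed 0).

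Named genes, not all of which are printed, are the 6 markers, the label genes, the 10 most abundant and 20 leading WT genes, the 12 largest and 12 smallest KO to WT ratios, and from each of 33 lists the 2 to 6 highest in WT, those past the fold and defining genes at 0. Genes named for single cells or for the *Lyve1* groups (*Ccr2*, *Ifitm3*, *H2-Aa*, *H2-Ab1*, *H2-Eb1*) and the pseudogenes stand outside that rule and were picked with their values in view. The file does not hold 3 list symbols (*Itgam*, *Selenop*, *Trdc*); *Selenop* is in it under its older symbol *Sepp1*. GENCODE M21 (GRCm38) matched 27645 of 28000 gene IDs. Alternatives changed the marker limits, the added CPM, the UMI minimum, the scaling and the cells included. The scripts were tested on simulated data. Python 3.11.15, numpy 2.4.6, scipy 1.17.1, pandas 2.3.3, matplotlib 3.10.9, R 4.3.3 and edgeR 4.0.16 (TMM) were used.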

Additional observations from a re-analysis of the deposited data

How the results depend on the processing

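Of 650 alternative values for 50 named genes under 13 alternatives, 569 were within the reported counting interval, 78 moved beyond it and 3 changed sign, of *Cd74* and *Ccl7*; the other 48 genes kept their sign in every alternative run. These 50 are genes past the fold. Named genes short of it were not among them, and *Ccl3* (0.42) was at -0.34 without its highest cells. Of 130 other values 95 were unchanged by these measures.

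Without the fibroblast-rich cells, the sum of MHC class II genes reversed from 2.54 to -0.70 and *Cd74* from 3.48 to -0.025, as 1 of those cells held 131 of 141 *Cd74* UMIs. Genes higher in KO numbered 36 in place of 64, the *Lyve1*-type sum was -0.81 in place of -1.15, and the chemokine sum 1.40 in place of 1.15. The chemokine sum was 0.91 as a mean over cells and 1.00 under TMM, which gave 40 genes higher. Adding 50 CPM gave 40 higher and 32 lower, where 73 were lower as reported, and a minimum of 20 UMIs gave 148 and 227, since more genes are tested. For genes that lead over other cells, 50 CPM gave 100 in WT and 85 in KO in place of 311 and 143, and a minimum of 50 UMIs gave 74 in KO.

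Among settings chosen after seeing the data, leaving out each gene's highest cell gave 36 higher and 154 lower, and leaving out the KO cell with most chemokine UMIs gave a chemokine sum of 0.86. Leaving out the 3 such KO cells gave a chemokine sum of 0.32 and a *Lyve1*-type sum of -1.32 and reversed *Ccl7* from 1.44 to -0.56; these cells held 632 of 1164 chemokine UMIs. Leaving out 15 such WT cells too gave a chemokine sum of 0.98. Leaving out cells with neither *Pf4* nor *Mrc1* gave a *Lyve1*-type sum of -0.98 and reversed the MHC class II sum to -0.90 and *Cd74* to -0.47; the cell with 131 *Cd74* UMIs is among them. Where no construction is named, the cause was not tested.

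No paired analysis was possible because each group has 1 library and the result comes from no test: a pair gives the same single difference, also if the embryos are the littermates the study describes, to which the labels do not tie these libraries. The 20 KO cells limit what can be seen: a gene at 0 there could be at 17 CPM.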
